A study of Mus musculus with 12 samples.

Results

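Fatty acid synthesis and desaturation was followed through 10 genes in mouse C2C12 myotubes treated with BAM15, a mitochondrial uncoupler. The genes were chosen by name as the transcription factor Srebf1, the enzymes Acly and Me1 that supply acetyl-CoA and NADPH, the synthetic enzymes Acaca and Fasn, the elongase Elovl6, and the desaturases Scd1, Scd2, Fads1 and Fads2. All 10 were found by Ensembl identifier among the 15113 genes counted, and all 10 had enough reads to be tested. C2C12 cells are mouse myoblasts of an established line, which form multinucleate myotubes in medium with little serum. Both groups were the same line, at passages 2 to 5 in the sample records, whereas the methods give a different range of passages. They were differentiated with horse serum for 5 days according to the methods. They were exposed for 16 h to 20 µM BAM15 dissolved in DMSO (6 libraries) or to vehicle without BAM15 (6 libraries). Whether the 6 libraries of a group came from separate cultures is not given in the sources used here, so p-values measure the spread between these libraries, which may be technical. One immortalized line grown in dishes is a limited model of muscle, and changes were measured at a single dose and time.

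As background, cells make fatty acids in the cytosol. ATP citrate lyase (Acly) splits citrate into acetyl-CoA, acetyl-CoA carboxylase (Acaca) turns this into malonyl-CoA, and fatty acid synthase (Fasn) builds palmitate from both with NADPH, part of which comes from malic enzyme (Me1). Elovl6 lengthens palmitate to stearate, the Scd enzymes place the first double bond into saturated chains, and Fads1 and Fads2 desaturate the polyunsaturated chains. Srebf1 encodes SREBP-1, a membrane-bound factor that is cut free to switch on these genes and is known in muscle for its response to insulin.

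Libraries were read from the poly(A) tail (QuantSeq), so that longer transcripts do not collect more reads. Between 13983725 and 18751780 reads were counted on genes per BAM15 library, and between 15299135 and 18866728 per vehicle library. Libraries carry numbers from 1 to 6 in each group, and BAM15 libraries 4 to 6 stood apart from 1 to 3 in earlier results of these data. The labels name no batch. Over all genes the split is not clean. By chi-square per gene, which grows as libraries differ more, BAM15 library 4 had 14.6 to 24.6 against libraries 1 to 3. Against libraries 5 and 6 it had 28.5 and 26.95, while 5 against 6 had 9.16. Libraries 4 to 6 are therefore not 1 uniform set. Results that rest on the split are given also for BAM15 libraries 1 to 3 and for 4 to 6, each against all 6 vehicle libraries. Values below are counts scaled to a common effective library size by the TMM method, and changes are log2 fold changes of BAM15 against vehicle from edgeR's quasi-likelihood test, with standard error (SE) and with p-values adjusted over 12730 genes by the Benjamini-Hochberg method.

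Promoter sequences are shown for the genes that fell and for which the RefSeq table (GRCm38.p6) had an entry, because these genes are classical subjects of promoter work on SREBP and its partners NF-Y and Sp1. Each window runs from 250 bases before to 50 bases after an annotated start, on the strand of the gene. Capitals mark the NF-Y box CCAAT and the Sp1 box GGGCGG, each read on both strands. Windows were matched for 7 of the 10 genes, and Scd1, Scd2 and Fads1 were not matched.
Fasn, chr11:120824498-120824797, minus strand: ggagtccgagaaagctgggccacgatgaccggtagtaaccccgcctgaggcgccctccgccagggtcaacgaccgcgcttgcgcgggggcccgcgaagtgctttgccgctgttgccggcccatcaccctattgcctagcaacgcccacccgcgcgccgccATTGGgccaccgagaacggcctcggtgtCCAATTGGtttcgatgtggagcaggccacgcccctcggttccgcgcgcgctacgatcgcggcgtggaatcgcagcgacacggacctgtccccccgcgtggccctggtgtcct
Acly, chr11:100527951-100528250, minus strand: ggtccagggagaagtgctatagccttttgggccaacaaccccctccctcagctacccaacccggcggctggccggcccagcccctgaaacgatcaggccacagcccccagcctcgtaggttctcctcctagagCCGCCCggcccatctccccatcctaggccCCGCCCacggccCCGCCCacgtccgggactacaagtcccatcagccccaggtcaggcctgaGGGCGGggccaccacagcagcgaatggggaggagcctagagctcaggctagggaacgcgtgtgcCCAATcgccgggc
Fads2, chr19:10101454-10101753, minus strand: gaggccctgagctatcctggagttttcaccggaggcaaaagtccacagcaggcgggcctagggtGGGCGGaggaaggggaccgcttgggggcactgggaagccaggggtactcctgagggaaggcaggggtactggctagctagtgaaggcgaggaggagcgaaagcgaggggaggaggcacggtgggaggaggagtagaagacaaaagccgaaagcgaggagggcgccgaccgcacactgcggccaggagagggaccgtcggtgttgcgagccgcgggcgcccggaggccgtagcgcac
The Fasn window held 3 NF-Y boxes, which begin 90, 62 and 59 bases before the start, and the last pair overlap on opposite strands. The Acly window held 4 Sp1 boxes and 1 NF-Y box, and the Fads2 window held 1 Sp1 box, 186 bases before the start. Over all 32817 windows of the table, 37.4% held an NF-Y box and 35.6% an Sp1 box, so that either is common. A sterol response element written as TCACNCCAC was found in 1.24% of all windows and in none of the 10 windows of the 7 matched genes, and the E-box CACGTG in 7.15% of all windows and likewise in none of the 10. These are matches of letters in short windows and show neither binding nor its absence.

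After BAM15, 5 of the 10 genes fell at an adjusted p below 0.01 (Acly, Fasn, Scd1, Scd2 and Fads2) and 0 rose (edgeR, adjusted over all genes). Of all tested genes, 20.3% were called lower and 22.0% higher at this threshold. The same 5 genes were lower in every BAM15 library than in any vehicle library, which held for 17.0% of all tested genes. The 10 genes had a median log2 fold change of −0.47, beside 0.02 for the whole table. Together the 10 genes took 0.142% to 0.164% of the reads in vehicle libraries and 0.0833% to 0.0997% in BAM15 libraries. Most of these reads were those of Scd2 and Scd1, so the sum chiefly follows this pair. With the thresholds of the study's methods, an adjusted p below 0.01, a mean normalized count above 50 and a change above 2-fold, 0 of the 10 genes were called by edgeR, by DESeq2 or by limma-voom, where 3.58% of all tested genes were called lower by edgeR. At an unadjusted p below 0.05, edgeR found 7 of the 10, 6 of them lower, a share near the 58.7% of all tested genes that passed in either direction. Scd2 lay nearest to the fold threshold among the well counted genes and passed it without BAM15 library 5, with a log2 fold change of −1.01.

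**Figure D1:**
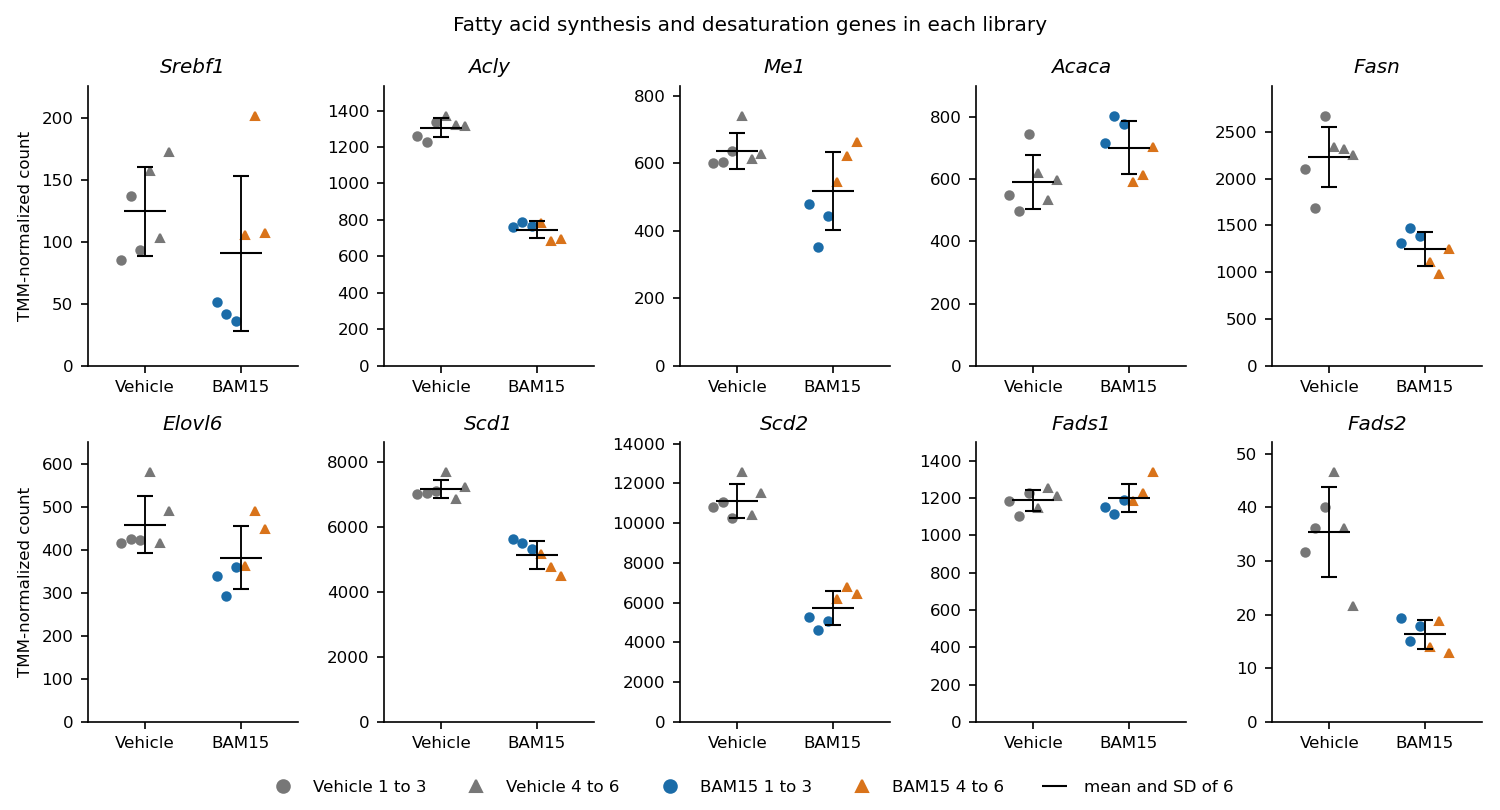
TMM-normalized counts (vertical axes, each from 0) of the 10 genes in the 6 vehicle and 6 BAM15 libraries. Points are libraries, with circles for numbers 1 to 3 and triangles for 4 to 6, and bars show mean and SD. Acly, Fasn, Scd1, Scd2 and Fads2 are lower in all 6 BAM15 libraries than in any vehicle library, and the other 5 genes overlap between groups.

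Acly and Me1 supply the substrates of synthesis. Acly (chr11:100476353-100528000, minus strand) had 1230 normalized counts in the lowest vehicle library, a median of 1317 and 1370 in the highest, against 682, 763 and 786 after BAM15. The groups did not overlap, and the libraries within each group lay close together. Acly fell by 42.9% (log2 fold change −0.81, SE 0.05, adjusted p = 9.55e-09). Me1 (chr9:86581371-86695953, minus strand) ranged from 600 to 740 in vehicle, with a median of 621, and from 351 to 663 after BAM15, with a median of 512. Vehicle library 4 set the upper end, and 4 of the 6 BAM15 libraries lay below all vehicle libraries. Me1 did not pass the threshold (log2 fold change −0.30, SE 0.13, adjusted p = 0.0560).

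Acaca and Fasn, which carry out consecutive steps, had different values. Acaca (chr11:84129672-84401651, plus strand) ranged from 499 to 747 in vehicle, with a median of 573, and from 593 to 804 after BAM15, with a median of 711. All 6 BAM15 libraries lay above the vehicle mean, but only 2 lay above the highest vehicle library. Acaca was not called over all libraries (log2 fold change 0.25, SE 0.10, adjusted p = 0.0532), and it was called higher when vehicle library 3 was left out (0.32, adjusted p = 0.00945). Fasn (chr11:120805846-120824547, minus strand), whose promoter carries the 3 NF-Y boxes above, ranged from 1686 to 2669 in vehicle, with a median of 2286. After BAM15 it ranged from 979 to 1474, with a median of 1277, so that no library of one group reached the other. Fasn fell by 43.9% (log2 fold change −0.83, SE 0.11, adjusted p = 1.55e-05).

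Among the enzymes that modify the finished chain, both Scd genes fell. Elovl6 (chr3:129532355-129638495, plus strand) ranged from 416 to 581 in vehicle, with a median of 424, and from 293 to 490 after BAM15, with a median of 361. The groups overlapped, 4 BAM15 libraries lay below every vehicle library, and the change was not called (log2 fold change −0.26, SE 0.12, adjusted p = 0.0875). Scd1 (chr19:44394455-44407879, minus strand), the main stearoyl-CoA desaturase of liver and fat, had 6866, 7058 and 7676 normalized counts as lowest, median and highest vehicle values. Its BAM15 values were 4483, 5237 and 5610, all below vehicle, and it fell by 28.1% (log2 fold change −0.48, SE 0.06, adjusted p = 8.61e-06). Scd2 (chr19:44293674-44306864, plus strand), a second stearoyl-CoA desaturase of wide expression, had 10265, 10926 and 12566 in vehicle and 4602, 5739 and 6790 after BAM15. Its groups were far apart, and Scd2 fell by 48.4% (log2 fold change −0.96, SE 0.09, adjusted p = 4.94e-07). Scd1 and Scd2 lie on the same chromosome with a gap of 87.6 kb between them. No window of 50 bases in the last 400 bases of either transcript occurred in the other, so that no read of 50 bases there matches both exactly.

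Fads1 and Fads2, the delta-5 and delta-6 desaturases, also lie on chromosome 19, on opposite strands, with start sites 81.1 kb apart. Fads1 (chr19:10182888-10196877, plus strand) ranged from 1105 to 1255 in vehicle, with a median of 1198, and from 1113 to 1338 after BAM15, with a median of 1186. The groups covered nearly the same range, the log2 fold change was 0.01 (SE 0.06, adjusted p = 0.844) and its 95% interval ran from −0.09 to 0.12. Fads2 (chr19:10062765-10101746, minus strand) was counted far less, from 21.7 to 46.5 in vehicle with a median of 36.1, and from 12.8 to 19.4 after BAM15 with a median of 16.5. Every BAM15 library lay below every vehicle library. Fads2 fell by 53.2% (log2 fold change −1.10, SE 0.20, adjusted p = 2.67e-04), a change above 2-fold. Its mean normalized count of 25.9 lay below the threshold of 50, so it did not pass all 3 thresholds.

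Srebf1, the regulator named with this pathway, was the most variable of the genes. Srebf1 (chr11:60199089-60222581, minus strand) ranged from 85.4 to 173 in vehicle, with a median of 120. The BAM15 libraries 1, 2 and 3 had 51.5, 42.1 and 35.7 normalized counts, whereas libraries 4, 5 and 6 had 106, 202 and 107. The first set lay below every vehicle library, and the second lay inside the vehicle range or, in library 5, above it. Over all libraries the log2 fold change was −0.46 (SE 0.39, adjusted p = 0.342), which was not called, and without BAM15 library 5 it was −0.88 (adjusted p = 0.0289). Exons of Rai1 on the other strand cover 109 of the last 400 bases of Srebf1, and 17.1% of its windows of 50 bases are shared with Rai1. The strand used in counting is not given in the sources used here, so reads of Srebf1 and Rai1 cannot be told apart there. No such overlap was found for the other 9 genes.

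Levels of different genes were compared as CPM, reads scaled by library size, which for 3′ counts needs no correction for length. The order of mean vehicle levels was Scd2 (670 CPM), Scd1 (432), Fasn (135), Acly (78.9), Fads1 (71.7), Me1 (38.5), Acaca (35.7), Elovl6 (27.7), Srebf1 (7.53) and Fads2 (2.14). The ranges of the 6 vehicle libraries overlapped between Acly and Fads1, between Me1 and Acaca, and between Acaca and Elovl6. Compared within each vehicle library, Acly was above Fads1 and Acaca above Elovl6 in all 6. Me1 was above Acaca in every vehicle library except library 3. The order of these neighbors was not tested. The well expressed Scd pair and Fasn were thus among the genes that fell, and so was Fads2, the least counted.

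The genes divided into those that were lower in both sets of BAM15 libraries and those that were not. Against all vehicle libraries, Acly had a log2 fold change of −0.76 in BAM15 libraries 1 to 3 and of −0.86 in 4 to 6. The values in the same order were −0.68 and −1.01 for Fasn, −0.38 and −0.57 for Scd1, −1.16 and −0.78 for Scd2, and −0.998 and −1.19 for Fads2. Each of these 10 values had an adjusted p below 0.01 by edgeR, and the highest of them, 0.00292, was that of Fads2 in libraries 1 to 3. Srebf1, Me1 and Elovl6 were called lower in libraries 1 to 3 alone, with log2 fold changes of −1.53, −0.58 and −0.47 (adjusted p = 5.73e-05, 2.14e-05 and 0.00108). In libraries 4 to 6 the values of these genes were 0.16, −0.06 and −0.08 (adjusted p = 0.630, 0.543 and 0.591). Acaca was called higher in libraries 1 to 3 (0.37, adjusted p = 0.00343) and had a log2 fold change of 0.11 in 4 to 6 (adjusted p = 0.404). So with BAM15 libraries 1 to 3, 8 of the 10 genes were called lower and 1 higher, where 23.8% of all genes tested in that fit were called lower and 24.6% higher. With libraries 4 to 6, 5 were called lower and 0 higher, beside 22.2% and 23.4% of all genes tested. Past the 3 thresholds, 2 of the 10 (Srebf1 and Scd2) were lower in libraries 1 to 3 and 1 (Fasn) in 4 to 6, where 4.69% and 3.96% of all genes were.

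**Figure D2:**
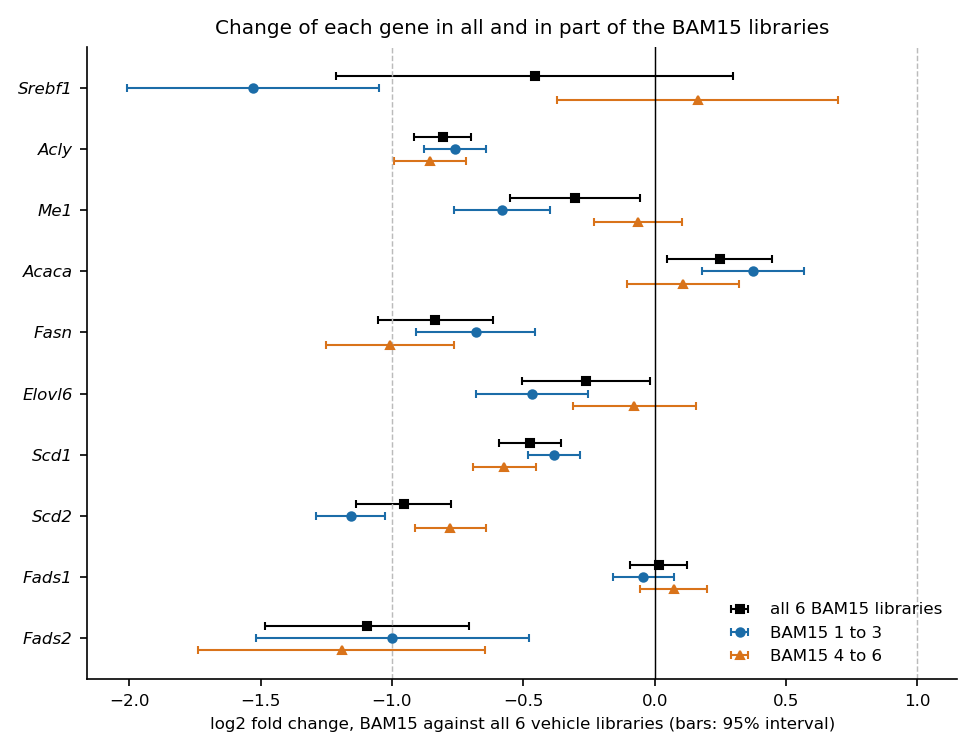
Log2 fold change of BAM15 against all 6 vehicle libraries (horizontal axis) for each gene, with all 6 BAM15 libraries (squares), with numbers 1 to 3 (circles) and with numbers 4 to 6 (triangles); bars are 95% intervals and dashed lines mark 2-fold. Acly, Fasn, Scd1, Scd2 and Fads2 lie below 0 in all 3 settings, and Srebf1 moves from −1.53 to 0.16 between the sets of BAM15 libraries.

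The difference between the sets was also fitted directly, with the limit that the split was taken up because earlier results showed it. Between BAM15 libraries 4 to 6 and 1 to 3, 3 of the 10 genes were higher in 4 to 6 at an adjusted p below 0.01 and 0 were lower, where 13.5% of all tested genes were higher and 10.7% lower. Srebf1 differed by 1.69 on the log2 scale (SE 0.30, adjusted p = 9.66e-04), Me1 by 0.52 (SE 0.11, adjusted p = 1.80e-03) and Scd2 by 0.38 (SE 0.07, adjusted p = 9.19e-04). For all of them the sets did not overlap: Me1 had 351 to 480 normalized counts in libraries 1 to 3 and 544 to 663 in 4 to 6, and Scd2 had 4602 to 5268 and 6211 to 6790. Scd1 had the opposite order, with 5314 to 5610 in libraries 1 to 3 and 4483 to 5160 in 4 to 6, and missed the threshold (−0.19, SE 0.06, adjusted p = 0.0286). Between the vehicle libraries of the same numbers, 0 of the 10 genes were called, and over all genes 0 passed an adjusted p below 0.01 by edgeR and 696 had an unadjusted p below 0.05.

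Several of the genes belong to families. The share of 1 gene in the summed raw counts of the family members named below is measured within a library and does not depend on scaling. The share of Scd1 in the Scd1 and Scd2 counts ranged from 37.9% to 40.8% in vehicle (39.2% ± 1.02, SD, n = 6) and from 41.1% to 54.4% after BAM15 (47.5% ± 5.69, SD, n = 6). No BAM15 library reached down to the vehicle range, and the mean rose by 8.29 percentage points (p = 0.00216 by a two-sided exact permutation test over libraries, the smallest this design allows, adjusted p = 0.00649 over 6 shares). The rise lay mostly in BAM15 libraries 1 to 3, with 51.2% to 54.4%, and libraries 4 to 6 had 41.1% to 45.4%. The share of Fads1 in the Fads1 and Fads2 counts rose from 97.1% ± 0.716 to 98.65% ± 0.258 (SD, n = 6 each), again without overlap (adjusted p = 0.00649, exact permutation test). Fads3 and Fads6 were not part of this sum. With BAM15 libraries 4 to 6 alone, the differences were 3.38 points for Scd1 and 1.69 for Fads1 with no overlap with vehicle (adjusted p = 0.0714 for both, exact permutation test). Both unadjusted values are the smallest that 3 against 6 libraries allow (p = 0.0238, exact permutation test), so the size of this design sets the adjusted p. In both pairs the partner, Scd2 or Fads2, had the lower log2 fold change.

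The other 4 shares did not reach an adjusted p below 0.05. Srebf1 made up 6.41% of the Srebf1 and Srebf2 counts in vehicle and 6.58% after BAM15 (adjusted p = 0.926, exact permutation test), so SREBP-2, the family's regulator of cholesterol genes, had most of the counts. Acaca made up 99.6% and 99.1% of the Acaca and Acacb counts (adjusted p = 0.108, exact permutation test), and Acacb, the carboxylase at mitochondria, had too few reads to be tested alone. Elovl6 made up 14.7% and 13.2% of the counts of Elovl1, Elovl4, Elovl5, Elovl6 and Elovl7 (adjusted p = 0.309, exact permutation test). Me1 made up 56.3% and 52.6% of the counts of the 3 malic enzymes (adjusted p = 0.305, exact permutation test), beside the mitochondrial Me2 and Me3, whose own log2 fold changes were −0.25 (adjusted p = 0.0110) and 0.26 (adjusted p = 0.0456). In BAM15 libraries 1 to 3, the Srebf1 share (2.91% to 4.28%), the Elovl6 share (10.3% to 12.2%) and the Me1 share (44.0% to 49.9%) lay below the whole vehicle range, and in 4 to 6 each of them lay above the lowest vehicle share.

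**Figure D3:**
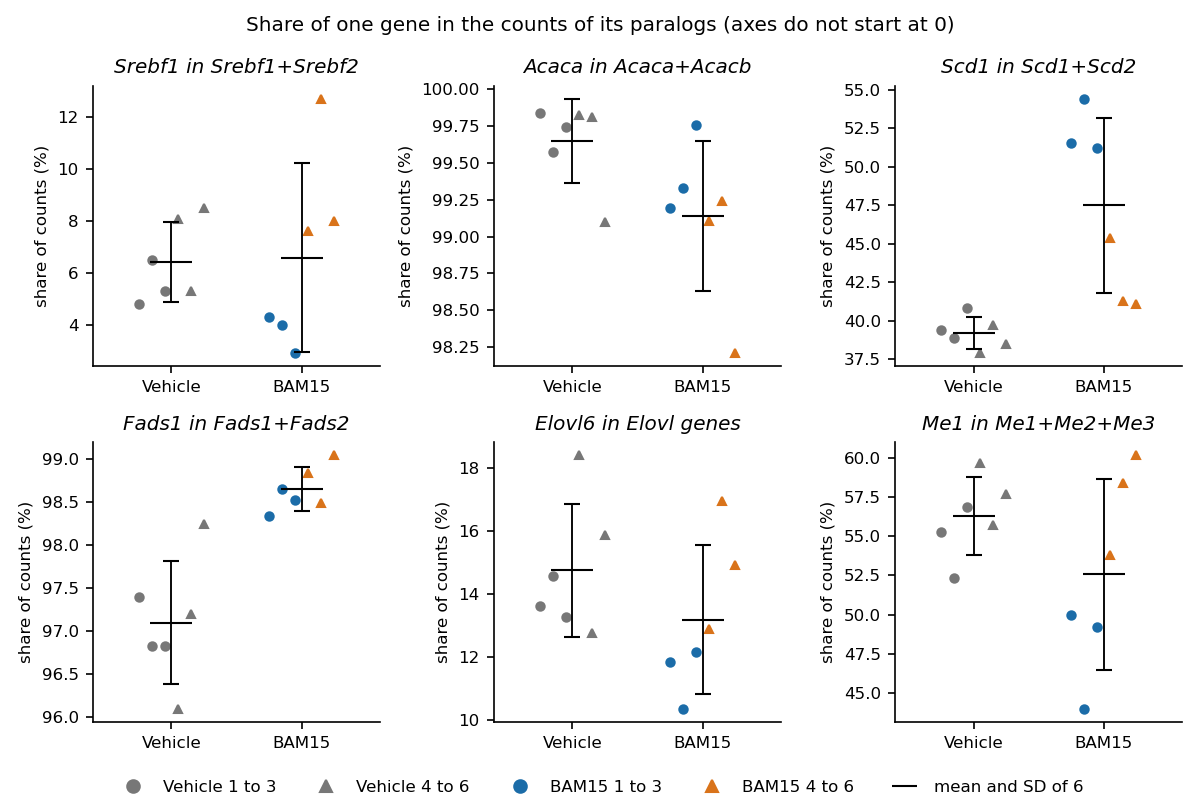
Share of 1 gene in the summed raw counts of the named members of its family (vertical axes in percent, not starting at 0) in each vehicle and BAM15 library. Circles are numbers 1 to 3, triangles 4 to 6, and bars show mean and SD. The Scd1 share lies between 37.9% and 40.8% in vehicle and between 41.1% and 54.4% after BAM15, and the Fads1 share also does not overlap.

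In the list of SREBP and other regulators, 15 of 17 genes had a row and were tested, of which 3 fell and 5 rose at an adjusted p below 0.01, with a median log2 fold change of 0.15. These shares are near those of all tested genes (20.3% lower and 22.0% higher), and nothing is read from them. Srebf2 fell by 0.58 (SE 0.07, adjusted p = 8.07e-06), and Insig1, which holds SREBP in the endoplasmic reticulum and is itself an SREBP target, fell by 0.89 (SE 0.10, adjusted p = 2.18e-06). Insig2, in the same list, went the other way and rose by 0.41 (SE 0.05, adjusted p = 4.60e-06 by edgeR). Its normalized counts were 880 to 977 in vehicle and 1161 to 1281 after BAM15, whereas Insig1 had 258 to 327 in vehicle. Fbxw7, the ubiquitin ligase subunit that marks cut SREBP for degradation, passed all 3 thresholds, with 3097 to 3658 normalized counts in vehicle and 1376 to 1992 after BAM15 (log2 fold change −1.07, SE 0.08, adjusted p = 3.13e-08). Nr1h3, the liver X receptor that can induce Srebf1, rose by 1.19 (SE 0.21, adjusted p = 1.91e-04) at low counts (10.9 to 23.8 in vehicle, 29.2 to 49.8 after BAM15). Mbtps2, the site-2 protease that frees SREBP, rose by 0.68 (SE 0.14, adjusted p = 8.44e-04), with log2 fold changes of 0.37 in BAM15 libraries 1 to 3 and 0.94 in 4 to 6.

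Among 12 tested genes of acetyl-CoA, malonyl-CoA and NADPH supply, 4 fell and 3 rose, with a median of −0.01. Beside these counts, 20.3% of all tested genes fell and 22.0% rose, and nothing is read from the counts. Idh1, the cytosolic isocitrate dehydrogenase that makes NADPH, passed the 3 thresholds with a log2 fold change of −1.16 (SE 0.24, adjusted p = 0.00138), from 1502 to 1879 normalized counts in vehicle to 385 to 1126 after BAM15. As with Me1, its BAM15 values were lower in libraries 1 to 3 (at most 529) than in 4 to 6 (at least 872), with log2 fold changes of −1.81 and −0.70. Slc25a1, the carrier that exports citrate to Acly, fell by 0.69 (SE 0.08, adjusted p = 4.65e-06), and Acss2, which makes acetyl-CoA from acetate, fell by 0.46 (SE 0.12, adjusted p = 0.00608). G6pdx, the entry enzyme of the pentose phosphate pathway and another source of NADPH, rose by 0.69 (SE 0.07, adjusted p = 6.11e-07), and Pcx, pyruvate carboxylase, rose by 0.52 (SE 0.12, adjusted p = 0.00235). Pcx was called in BAM15 libraries 1 to 3 (0.73, adjusted p = 8.31e-06) and not in 4 to 6 (0.29, adjusted p = 0.0561). Acss2 was likewise called in 1 to 3 (−0.53, adjusted p = 0.00315 by edgeR) and not in 4 to 6 (−0.39, adjusted p = 0.0453 by edgeR).

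Among 18 tested genes of other elongation and desaturation steps, 7 fell and 3 rose, with a median of −0.10, and 0 passed the 3 thresholds. Over all tested genes, 20.3% fell and 22.0% rose. Cyb5a, the cytochrome that passes electrons to the desaturases, fell by 0.68 (SE 0.09, adjusted p = 1.57e-05), and Fads6 fell by 0.99 (SE 0.20, adjusted p = 6.20e-04). Elovl7 rose by 1.17 (SE 0.27, adjusted p = 0.00185) from low counts, and Fads3 rose by 0.28 (SE 0.08, adjusted p = 0.00606). Cyb5a fell in both sets of BAM15 libraries (−0.87 in 1 to 3 and −0.52 in 4 to 6), whereas Fads3 was called in 4 to 6 (0.41, adjusted p = 1.40e-05) and not in 1 to 3 (0.13, adjusted p = 0.0628). The number called higher was 1 when vehicle library 1, 2 or 6 was left out.

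Glycerolipid assembly uses the fatty acids that these enzymes make. Of its 12 tested genes, 2 rose and 0 fell at an adjusted p below 0.01, with a median of 0.01. Over all tested genes, 22.0% rose and 20.3% fell. Gpat3, an acyltransferase of the first step, had 16.5 to 47.5 normalized counts in vehicle and 126 to 165 after BAM15 (log2 fold change 2.04, SE 0.18, adjusted p = 1.46e-07). Dgat2, an enzyme of the last step to triglyceride, had 47.0 to 73.1 and 120 to 162 (log2 fold change 1.25, SE 0.13, adjusted p = 1.43e-06). Both passed the 3 thresholds. The count differed between the sets of BAM15 libraries, with 4 higher and 0 lower in 1 to 3, and 2 higher and 2 lower in 4 to 6. Among all genes tested in those fits, 24.6% were higher and 23.8% lower with 1 to 3. With 4 to 6 the shares were 23.4% and 22.2%. Nothing is read from these counts.

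Cholesterol synthesis and uptake, the branch controlled chiefly by SREBP-2, moved in 1 direction. All 17 genes of a list of sterol-responsive genes fell at an adjusted p below 0.01, with a median of −1.22, beside −0.47 for the 10 genes of fatty acid synthesis. Over all tested genes, 20.3% fell at this threshold and 3.58% passed the 3 thresholds as lower. This list overlaps with what earlier results of these data had already shown, and it is given for comparison of values. Of the 17, 11 passed the 3 thresholds, among them Hmgcs1 with a log2 fold change of −1.42, Sqle with −1.36, Lss with −1.22, Cyp51 with −1.30, Msmo1 with −1.02, Nsdhl with −1.17 and Stard4 with −2.19. The highest adjusted p among these named genes was 2.61e-06, that of Lss, whose log2 fold change was −1.56 in BAM15 libraries 1 to 3 and −0.95 in 4 to 6. Among the genes not past the 3 thresholds, Idi1 (−1.11, adjusted p = 5.93e-04) and Fdps (−0.93, adjusted p = 4.18e-08) fell most. Over all 6 BAM15 libraries, none of the 10 genes of fatty acid synthesis had a log2 fold change below this list's median. In each set of BAM15 libraries this did not hold. The middle gene of the list was Nsdhl, with −1.24 in libraries 1 to 3 and −1.11 in 4 to 6. Srebf1 lay below it in 1 to 3 (−1.53), and Fads2 in 4 to 6 (−1.19).

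**Figure D4:**
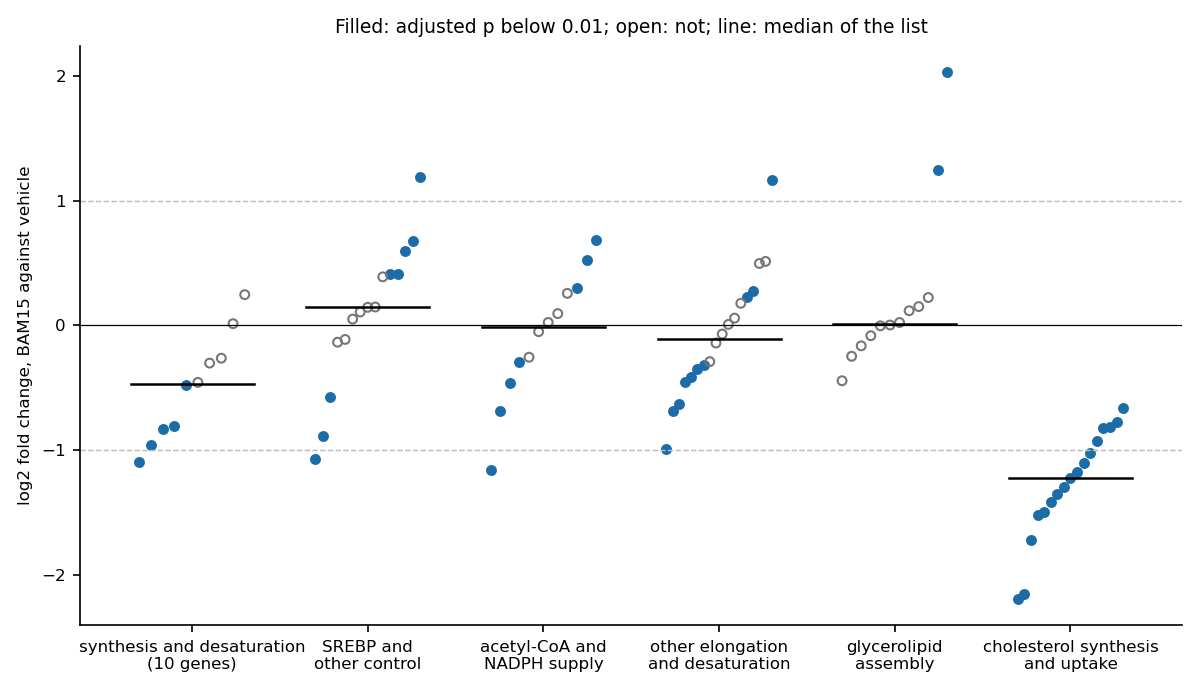
Log2 fold change of BAM15 against vehicle (vertical axis) for each tested gene of the 10 genes and of 5 lists of related genes; filled points have an adjusted p below 0.01, lines mark list medians and dashed lines 2-fold. The 10 genes have a median of −0.47, the cholesterol list a median of −1.22, and the other lists medians between −0.10 and 0.15.

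Markers of the labelled cells were present in every library. Of 12 myotube markers, 2 rose and 2 fell at an adjusted p below 0.01, where 22.0% of all tested genes rose and 20.3% fell. The summed level of the 12 was 20721 to 23611 CPM in vehicle and 19659 to 24531 CPM after BAM15. The 3 most abundant myotube markers were Acta1 (log2 fold change 0.46, adjusted p = 3.96e-05), Tnnt3 (−0.30, adjusted p = 0.0914) and Des (−0.49, adjusted p = 0.0130). With BAM15 libraries 1 to 3 and 4 to 6, the values were 0.55 and 0.36 for Acta1, −0.04 and −0.62 for Tnnt3, and −0.19 and −0.85 for Des. Tnnt3 and Des were called lower in 4 to 6 (adjusted p = 5.67e-04 and 1.40e-06 by edgeR) and not in 1 to 3. Of 8 markers of undifferentiated or dividing myoblasts, 5 fell and 1 rose, and their sum was 349 to 405 CPM in vehicle and 145 to 212 CPM after BAM15. The most abundant were Top2a (−1.46, adjusted p = 2.22e-08), Cdk1 (−1.43, adjusted p = 0.00261) and Mki67 (−1.80, adjusted p = 2.14e-08). The marker that rose was Myf5 (1.69, adjusted p = 0.00144 by edgeR), which passed the 3 thresholds. In BAM15 libraries 1 to 3 and 4 to 6, the log2 fold changes were −1.27 and −1.68 for Top2a and −2.33 and −0.87 for Cdk1. They were −1.57 and −2.08 for Mki67, and 0.82 and 2.24 for Myf5. In bulk RNA, fewer cells of a type and less RNA per cell cannot be told apart, and the part of dividing cells in the fall of the fatty acid genes was not tested.

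Adipocytes express this pathway strongly, and 3 of 8 adipocyte markers had a row. Adipoq, Plin1, Cidec, Lep and Retn had no row, and Fabp4 had 0 to 3 counts per library. Pparg, a regulator of fat cells that occurs in other cells too, rose from 3.09 to 17.6 normalized counts in vehicle to 46.5 to 206 after BAM15 (log2 fold change 2.68, SE 0.44, adjusted p = 1.50e-04), and Cebpa was not called (−0.20, adjusted p = 0.174). The sum of the 3 was 5.60 to 7.80 CPM in vehicle and 7.48 to 18.6 CPM after BAM15.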

How the data were processed

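RNA of C2C12 myotubes, 6 libraries per group, was prepared with a 3′ kit (QuantSeq) and sequenced as forward reads, of 50 bp in the sample records and 75 bp in the methods. The authors deposited counts, the unscaled number of reads assigned to each Ensembl gene, after alignment and counting with BlueBee software, and a table of normalized signal that the authors made with DESeq2 (version 1.22.2 in the submitters' processing notes, which name GRCm38 and mm10). Tested on its values, in each library the deposited signal was the count over a single size factor, and it served for 1 alternative. The tables also hold 11 columns of libraries outside the labelled samples, which were not used. Aligner, annotation and strand of counting are not given in the sources used here.

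Of 15113 genes, 15080 were found in GENCODE M21 of GRCm38, which supplied positions and 2260 symbols that the table lacked. Libraries of a group were compared in 15 pairs, and the chi-square per gene (4.75 to 79.1) exceeded sampling noise in every pair. Genes with low counts were removed with edgeR's filterByExpr (2383 genes), and TMM factors ranged from 0.932 to 1.04. Counts were fitted with edgeR 4.0.16 in R 4.3.3 (quasi-likelihood test, robust moderation, group as the only term), and p-values were adjusted over 12730 genes. SE is the size of the log2 fold change divided by the square root of F. Sets of BAM15 libraries were compared in a fit with 4 terms, and shares by exact permutation in scipy 1.17.1. Alternatives used DESeq2 1.42.0, limma 3.58.1, other scalings, filters and thresholds, a replicate block, and libraries left out. Scripts were tested on simulated data with known changes.

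The 10 genes and the lists were chosen with earlier results of these data known. Named are all 10 genes, the partners in the shares, for each list the genes past the 3 thresholds and the 2 largest rises and falls at an adjusted p below 0.01, and the 3 most abundant markers of a type. Named besides these are Myf5, as the myoblast marker that rose, and Insig2, beside Insig1. A few genes of the cholesterol list are counted but not reported by name. PCR duplicates were not marked by molecular identifiers, so limits from depth cover counting error only. Promoters were taken from RefSeq (GRCm38.p6).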

Additional observations from a re-analysis of the deposited data

Results flagged for a closer look

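Of 34 groups of 6 libraries checked for a single library far from the others (Dixon's test at the 95% level), 2 stood out, and chance alone gives about 1 in 20. Me1 had 740.45 normalized counts in vehicle library 4, against 599.6 to 635.48 in the other vehicle libraries. Without this library the log2 fold change of Me1 was −0.26 (adjusted p = 0.121 by edgeR), again not called. The share of Acaca in the Acaca and Acacb counts was 99.102% in vehicle library 6, against 99.575% to 99.84% in the others, which are shares of few Acacb reads. Without that library the difference of the Acaca share between groups was −0.618 percentage points and its adjusted p was 0.0260 (exact permutation test).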

How the results depend on the processing

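The calls of Acly, Fasn, Scd1, Scd2 and Fads2 as lower held in each of the 23 alternative fits, with log2 fold changes of −0.87 to −0.76, −1.01 to −0.68, −0.57 to −0.38, −1.16 to −0.78 and −1.21 to −0.998. The number of the 10 genes past the 3 thresholds and lower was 0 in the main fit. It was 2 with BAM15 libraries 1 to 3 only (Srebf1 and Scd2) and 1 with 4 to 6 only (Fasn). Of all genes in those fits, 4.69% and 3.96% passed as lower. The number was 1 with library size only (Scd2) and 3 at 1.5-fold (Acly, Fasn and Scd2). It ranged from 0 to 1 when single libraries were left out (1 without BAM15 library 5). For these last settings the share of all genes was not counted, and nothing is read from the numbers. At an adjusted p below 0.01 alone, 8 were lower and 1 (Acaca) higher with BAM15 libraries 1 to 3 only (23.8% and 24.6% of all genes in that fit), and leaving out single libraries gave 5 lower and 0 to 1 higher (1 without vehicle library 3). Fads1, which was never called, had −0.00537 with upper-quartile factors, −0.0439 with library size only, −0.0438 with BAM15 libraries 1 to 3 only and −0.0185 to 0.0359 with single libraries left out. Srebf1 was at 0.16 with BAM15 libraries 4 to 6 only. In the lists, other elongation and desaturation had 1 gene higher with library size only and 1 to 3 with single libraries left out. Glycerolipid assembly had 4 of 12 higher with BAM15 libraries 1 to 3 only (24.6% of all genes in that fit). It had 2 lower with 4 to 6 only (22.2% of all genes in that fit). With BAM15 libraries 1 to 3 only, the share of Srebf1 differed by −2.68 percentage points, that of Elovl6 by −3.30 and that of Me1 by −8.56. With 4 to 6 only, the differences were 3.38 for Scd1 and 1.69 for Fads1 (adjusted p = 0.0714 by exact permutation test for both, at the smallest p of that design), 0.175 for Elovl6 and 1.18 for Me1. With single libraries left out, the share of Srebf1 differed by −1.05 to 0.904 and that of Acaca by −0.632 to −0.322, which passed 0.05 without BAM15 library 3 or vehicle library 6. The cause of these moves was not tested. Library numbers are shared by the groups, but nothing says that they pair cultures: deviations of same-numbered libraries correlated at −0.08 to 0.31, above 0.1 in 4 of 6 pairs, and 2 libraries correlated best with their own number. With a replicate block the 5 calls among the 10 genes were unchanged, and the exact sign-flip test of the shares gave 8.29 percentage points for Scd1 and 1.55 for Fads1 (adjusted p = 0.0938 for both), where the smallest unadjusted p of that test is 0.0312. Depth limits chiefly Fads2 and Acacb, whose counts are low.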
